A study of Mus musculus with 6 samples.

Results

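The BTG and TOB genes encode a family of antiproliferative proteins, and 5 of them are described here, Btg1, Btg2, Btg3, Tob1 and Tob2. The members were chosen by name, and their rows were taken from a table of read counts for 21761 genes. The choice was made with earlier results of these libraries in view, among them a lower Btg2 level in IMP1 cells. All values of the IMP1 to Control comparison for the members are therefore a description of these libraries and not a test. All 5 members were among the 12807 genes that passed the filter on low counts.

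RNA was sequenced from long-term haematopoietic stem cells (LT-HSCs), the marrow cells that can rebuild blood over a lifetime. The Control donors had the genotype Rosa26 +/+;Mx1-Cre tg/+ and the IMP1 donors Rosa26 I/+;Mx1-Cre tg/+, where I is a conditional knock-in of IMP1. Igf2bp1 encodes IMP1, which binds messenger RNAs. Marrow of CD45.2 donors was placed in lethally irradiated CD45.1/2 hosts. Injected poly(I:C), which mimics viral RNA, induced the interferon-responsive Mx1-Cre transgene, which the donors of both groups carried. After 8 weeks, 200 CD45.2+ LSK CD150+ CD48- CD34- cells were sorted for each library, and each genotype had 3 libraries. Mx1-Cre is not restricted to stem cells. The sources used here do not give the promoter driving IMP1, the age of the mice or the number of mice behind a library. The p-values therefore measure only the spread between these libraries.

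BTG and TOB proteins share an amino-terminal BTG domain, through which they bind CNOT7 and CNOT8, the CAF1-type deadenylases of the CCR4-NOT complex. By bringing this complex to messenger RNAs they speed the removal of poly(A) tails, and high levels of family members slow entry into the cell cycle. BTG2 and BTG1 consist of little more than the BTG domain, while TOB1 and TOB2 have a long carboxy-terminal part that binds the cytoplasmic poly(A)-binding protein. In blood cells, BTG1 and BTG2 are known from quiescent lymphocytes, and Btg2 is known as both an early-response gene and a target of p53.

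The sequence just before the transcription start is shown for Btg2 and Tob2, the members whose groups did not overlap, and for Btg1, the most abundant member. Each run holds the 250 bases before the start, 5′ to 3′ in the direction of the gene, from the RefSeq promoter table of GRCm38.p6, in which all 5 members were matched. Btg2 lies at chr1:134079156-134079405 on the minus strand, Tob2 at chr15:81858327-81858576 on the minus strand and Btg1 at chr10:96616751-96617000 on the plus strand. The deposited counts carry no coordinates. Capitals mark matches on either strand to the cyclic AMP response element (CRE, TGACGTCA), the FOXO motif (TGTTTAC), the CCAAT box (CCAAT), the TATA box (TATAAA) and the GC box (GGGCGG).
Btg2: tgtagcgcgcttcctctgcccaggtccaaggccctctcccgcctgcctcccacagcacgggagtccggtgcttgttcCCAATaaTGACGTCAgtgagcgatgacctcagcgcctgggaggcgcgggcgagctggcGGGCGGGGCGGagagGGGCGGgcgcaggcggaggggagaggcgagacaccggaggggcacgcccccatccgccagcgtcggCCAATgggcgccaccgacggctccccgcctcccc
Tob2: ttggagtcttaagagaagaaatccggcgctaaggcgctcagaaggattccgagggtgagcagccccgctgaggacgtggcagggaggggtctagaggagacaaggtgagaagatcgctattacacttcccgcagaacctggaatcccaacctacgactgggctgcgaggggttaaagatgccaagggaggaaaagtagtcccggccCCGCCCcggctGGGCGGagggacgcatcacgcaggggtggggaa
Btg1: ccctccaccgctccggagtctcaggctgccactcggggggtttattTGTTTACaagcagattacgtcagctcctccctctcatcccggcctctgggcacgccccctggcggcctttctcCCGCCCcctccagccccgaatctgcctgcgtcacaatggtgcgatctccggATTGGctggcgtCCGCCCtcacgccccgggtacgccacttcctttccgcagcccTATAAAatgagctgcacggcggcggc

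Btg2 was the single member with the full CRE, 166 bases before the start, a motif held by 1.55% of 32851 RefSeq promoter windows of this length. It had 2 CCAAT boxes, where 33.8% of windows held at least 1. It also had 3 GC boxes, the first 2 overlapping, where 32.7% of windows held at least 1. Btg1 held the FOXO motif 204 bases before the start (3.17% of windows) and a TATA box 26 bases before it (12.4%). The window of Tob2 held 2 GC boxes and none of the other motifs marked. Tob1 had a TATA box 47 bases before its start. Btg3 has 2 annotated starts, each with a CCAAT box. The CRE contains TGACG, which 17.8% of windows hold and which also occurred at 2 places in Btg1 and 1 in Tob1. None of the 6 windows of the 5 members matched the AP-1 motif (TGANTCA, 6.75% of windows), the E-box (CACGTG, 6.02%), the p53 half-site (7.13%) or the serum response CArG box (1.47%). The printed windows had a GC content of 73.2% (Btg2), 60.4% (Tob2) and 65.2% (Btg1), against a median of 52.4% over all promoters. The shares of windows were not matched for GC content, so they do not show how rare a motif is in such windows. These matches describe letters in a short window and not binding.

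All 5 members also carried the AU-rich pentamer ATTTA in the 3′ untranslated region of their longest coding GENCODE M21 transcript. Such pentamers are a feature of many short-lived messenger RNAs. The stretches below show 25 bases with the pentamer in capitals, for both members with separate groups and for Tob1, where 2 pentamers follow each other directly.
Btg2: atgaagagctATTTAtacatgtttt
Tob2: tcacctgcttATTTAtgtacgaggt
Tob1: taattgtataATTTAATTTAgtaca

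Btg1 had 11 pentamers in 4166 bases, a number reached by 5.50% of tested genes with such a region. Btg2 had 5 in 2199 bases, Btg3 5 in 2554, Tob2 4 in 2457 and Tob1 3 in 767. Per kilobase, Tob1 had most (3.91, a density reached by 10.7% of tested genes) and Tob2 fewest (1.63, reached by 42.2%). Btg1, with the longest region, had 2.64 per kilobase, a density reached by 23.5%. By number, Btg2 and Tob2 lay within the range of the other members, and by density Tob2 lay below it.

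Control libraries held between 25749898 and 27338450 counts and IMP1 libraries between 50220629 and 67083116, on average 2.26 times as many, so depth differed with genotype. Igf2bp1 had 0, 0 and 1 counts in Control and 1870 to 2084 in IMP1 libraries. Over all genes, edgeR's quasi-likelihood test called 9 genes higher (0.0703%) and 18 lower (0.141%) at an adjusted p under 0.05. Without TMM scaling the split was 9 and 7, and with a length and GC trend removed 6 and 7. All 12 LT-HSC markers examined passed the filter, with summed levels of 2033 to 2306 CPM in Control and 2572 to 2875 CPM in IMP1 cells. Levels are TMM-normalised counts per 1000000 counts (CPM).

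Btg2, a short-lived inhibitor of cell cycle entry, was the member with the largest difference. Its level was 32.6, 33.8 and 17.8 CPM in Control 1 to 3, and 8.01, 4.14 and 10.5 CPM in IMP1 1 to 3. The groups did not overlap, with Control 3 nearest to the IMP1 libraries and IMP1 2 the lowest. The lowest Control value was 1.70 times the highest IMP1 value. Means were 28.1 ± 8.94 against 7.54 ± 3.19 CPM (SD, n = 3), and the fitted level was 3.73-fold lower in IMP1 cells. The log2 fold change was −1.90 (SE 0.45), with an adjusted p of 0.117 by edgeR over all genes, on 2167 counts in Control and 1340 in IMP1 libraries. In RNA of sorted pools, fewer cells with a transcript and less of it per cell cannot be told apart.

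Tob2, a large member of the family that also associates with the deadenylase complex, was lower as well. Control 1 to 3 stood at 28.6, 41.2 and 32.9 CPM, and IMP1 1 to 3 at 20.3, 17.4 and 15.0 CPM. Again no IMP1 value reached a Control value, and the lowest Control value was 1.41 times the highest IMP1 value. Means were 34.3 ± 6.41 and 17.6 ± 2.61 CPM (SD, n = 3), a 1.95-fold difference (log2 fold change −0.96, SE 0.28, edgeR adjusted p = 0.176). The spread within each group was smaller for Tob2 than for Btg2, with coefficients of variation of 18.7% and 14.8% against 31.8% and 42.3%. The reference has an antisense gene, Gm49476, over Tob2. It had no row in the table, so reads of the opposite strand could have been counted as Tob2.

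**Figure D1:**
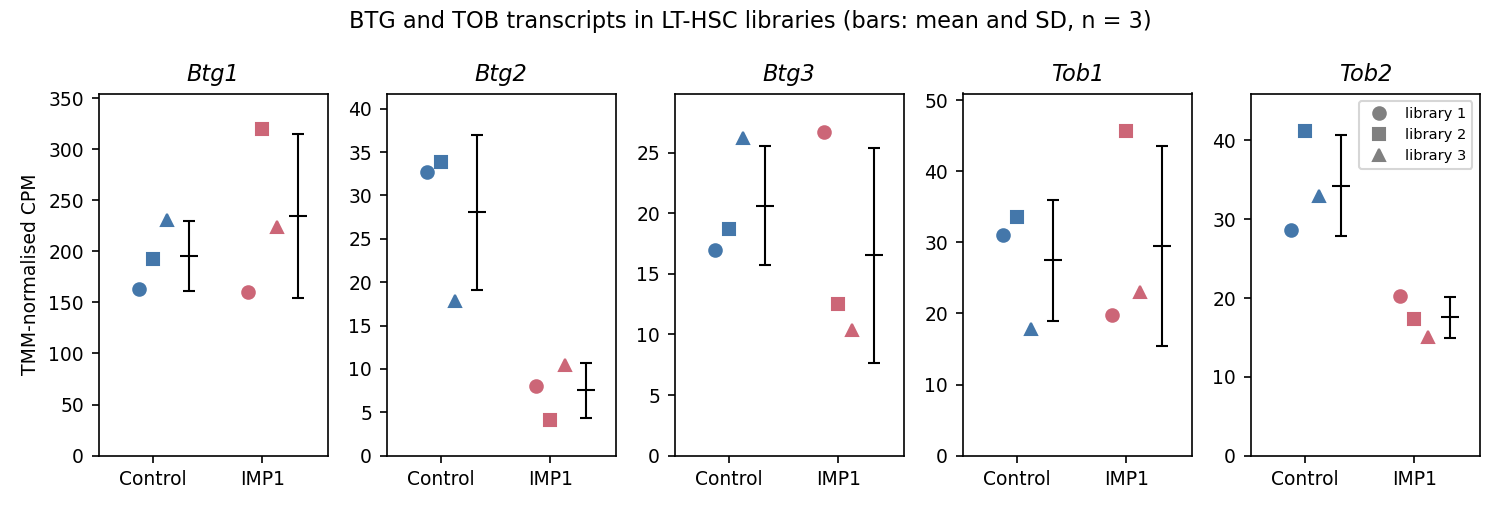
TMM-normalised CPM (vertical axes, starting at 0, a scale for each gene) of the 5 members in 3 Control and 3 IMP1 libraries, with the marker shape giving the library number and bars the mean and SD. The Btg2 and Tob2 points of the groups do not overlap, while those of Btg1, Btg3 and Tob1 do.

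The other 3 members overlapped between groups. Btg1, a close relative of Btg2 that is abundant in quiescent lymphocytes, stood at 163, 193 and 231 CPM in Control and 159.9, 319.9 and 224 CPM in IMP1 libraries. IMP1 2 was above all other libraries and IMP1 1 below them. Means were 196 ± 34.1 and 235 ± 80.5 CPM (SD, n = 3), with a log2 fold change of 0.26 (SE 0.25, edgeR adjusted p = 0.694). Without IMP1 2 the sign turned, to −0.027. The annotated Btg1 copy Btg1c had 0 counts in every library.

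Tob1, the paralogue of Tob2 and a described partner of SMAD proteins, stood at 31.1, 33.6 and 17.8 CPM in Control and 19.8, 45.7 and 23.1 CPM in IMP1 libraries. The highest value was again that of IMP1 2. Means were 27.5 ± 8.49 and 29.5 ± 14.1 CPM (SD, n = 3), with a log2 fold change of 0.10 (SE 0.40, edgeR adjusted p = 0.936), and −0.36 without IMP1 2 or −0.13 without Control 3.

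Btg3, which is placed between the short and the long members in size, stood at 16.98, 18.7 and 26.2 CPM in Control and 26.7, 12.5 and 10.3 CPM in IMP1 libraries. The values of IMP1 1 and Control 3 were nearly equal, and those of the other IMP1 libraries lay below every Control library. Means were 20.6 ± 4.91 and 16.5 ± 8.90 CPM (SD, n = 3), with a log2 fold change of −0.32 (SE 0.43, edgeR adjusted p = 0.798), which became −0.85 without IMP1 1. Cxadr, on the opposite strand, overlaps Btg3 in the reference and had 0.160 to 3.403 CPM in Control and 1.10 to 8.42 CPM in IMP1 libraries. Gm49590 overlaps Btg3 on the same strand and had no row in the table, so its reads could have been counted as Btg3. IMP1 1 also had the highest summed level of 10 erythroid markers in the table, 472 CPM against 56.4 to 163.7 CPM in the other libraries. The part of the overlapping genes or of erythroid cells in the Btg3 values was not tested. Btg4, the family member known from oocytes and not part of the set, had 0 counts in all 6 libraries, which allows at most 0.117 CPM in the shallowest of them (3 counts of its total).

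Of the 5 members, 0 passed the adjusted p, where 0.211% of all tested genes did, 0.0703% higher and 0.141% lower. There were 2 members below an unadjusted p of 0.05, both with a lower level, where 7.63% of tested genes were lower and 6.67% higher. The same 2 members, Btg2 and Tob2, had groups that did not overlap with IMP1 lower, as did 11.1% of all tested genes. DESeq2 called both lower, Btg2 with an adjusted p of 0.00309 and Tob2 with 0.0491, and by that tool 3.05% of tested genes were lower. The median log2 fold change was −0.32 over the members and 0.03 over all tested genes. Since the comparison itself was known when the family was chosen, these shares are given side by side and nothing is read from them.

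**Figure D2:**
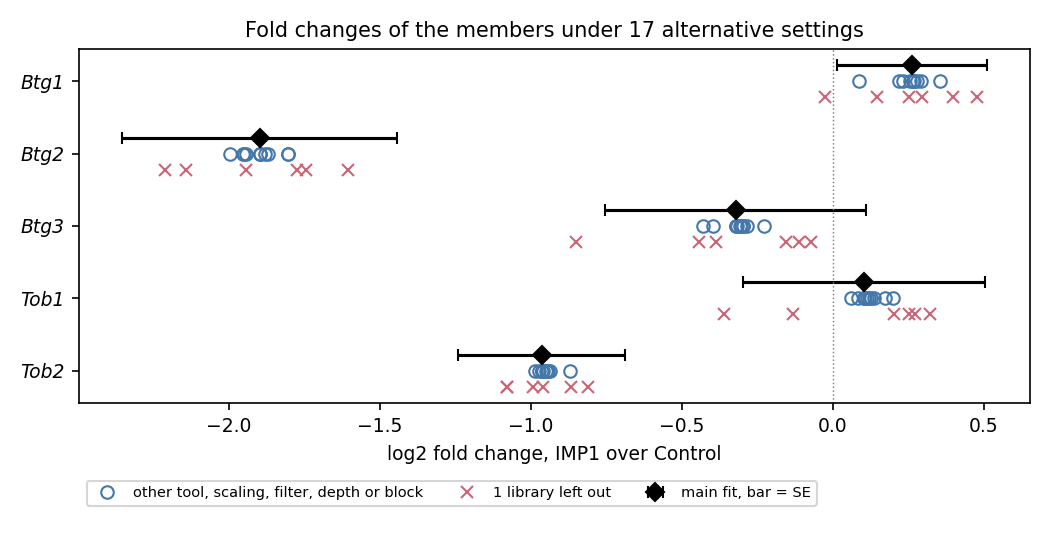
Log2 fold change, IMP1 over Control (horizontal axis), of each member in the main edgeR fit (diamond, bar = SE), under 11 other tools, scalings, filters or designs (circles) and with 1 library left out (crosses). Btg2 and Tob2 stayed below 0 throughout, from −2.21 to −1.61 and from −1.08 to −0.81, while Btg1 and Tob1 had values on both sides of 0.

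To compare members with one another, CPM were divided by the length of the longest annotated transcript. Btg1 was the highest member in both groups, at 39.1 ± 6.82 CPM per kilobase in Control and 46.9 ± 16.1 in IMP1 cells (SD, n = 3). Its lowest library stood above the highest library of Tob1, the next in order, in each group. In Control cells the order went on with Tob1 (12.0 ± 3.71), Btg2 (10.2 ± 3.26), Tob2 (8.26 ± 1.54) and Btg3 (6.85 ± 1.63), and the ranges of each of these neighbours overlapped. In IMP1 cells it went on with Tob1 (12.9 ± 6.15), Btg3 (5.48 ± 2.95), Tob2 (4.23 ± 0.628) and Btg2 (2.75 ± 1.16), again with overlapping neighbours. The order below Btg1 depends on the transcript used. With the median transcript length, Tob2 came after Btg1 in Control cells at 19.9 CPM per kilobase, and Btg2 was lowest in both groups.

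The summed level of the family was 70.6, 81.7 and 77.1 CPM per kilobase in Control 1 to 3 and 57.3, 93.8 and 65.7 in IMP1 1 to 3, or 76.5 ± 5.56 and 72.3 ± 19.1 (SD, n = 3). The IMP1 libraries lay on both sides of the Control range. Btg1 made up 46.2%, 47.2% and 59.9% of that sum in Control 1 to 3 and 55.8%, 68.2% and 68.1% in IMP1 1 to 3, with Control 3 above IMP1 1. The share of Btg2 was 16.9%, 15.1% and 8.40% in Control and 5.09%, 1.61% and 5.80% in IMP1 libraries. Tob2 held 9.76% to 12.2% in Control and 4.46% to 8.51% in IMP1 cells, so that the shares of Btg2 and Tob2 did not overlap between groups. The sum and the shares rest on the longest transcripts and restate the levels given above. IMP1 2 had at once the highest Btg1 and Tob1 levels and the lowest Btg2 level of all 6 libraries.

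**Figure D3:**
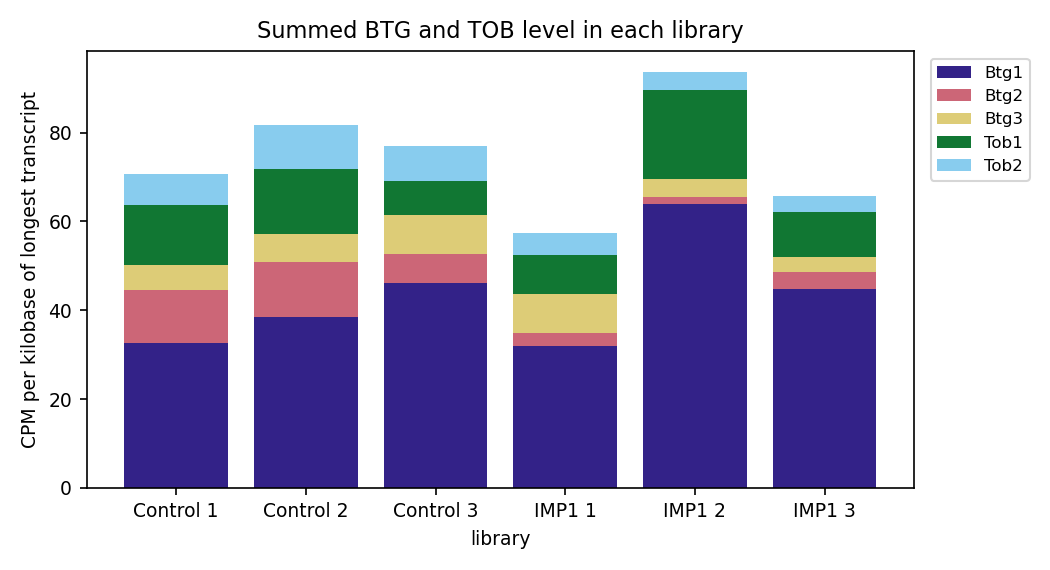
Bars give the level of each member in CPM per kilobase of its longest transcript (vertical axis, from 0), stacked for each of the 6 libraries. Btg1 is the largest block everywhere, the Btg2 block is smaller in the 3 IMP1 libraries, and the sum runs from 57.3 in IMP1 1 to 93.8 in IMP1 2.

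Genes that work with the family were read from the same fit, in 7 lists of 87 genes, of which 80 were tested. None passed the adjusted p by edgeR (0 of 80, where 0.211% of all tested genes did). At an unadjusted p under 0.05 there were 16, or 20.0%, where 14.3% of all tested genes were. By direction, 6.67% of all tested genes were under it with a higher level and 7.63% with a lower one. These shares are the background for each list below. DESeq2 called 7 of them, where it called 5.42% of all tested genes.

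Of 11 genes of the CCR4-NOT complex, the deadenylase that BTG and TOB proteins recruit, 1 had an unadjusted p under 0.05 with a higher level and 2 with a lower one, with a median log2 fold change of 0.25. These counts were 3 and 1 without TMM scaling, 2 and 1 with upper quartile scaling, 0 and 1 after removal of the length and GC trend or without Control 1 or Control 3, and 2 and 2 without IMP1 2. The direct partners of the family went in different directions. Cnot7, a CAF1-type deadenylase, stood at 58.2, 87.2 and 79.2 CPM in Control and 86.0, 111 and 134 CPM in IMP1 libraries (log2 fold change 0.56, edgeR adjusted p = 0.307). Its groups overlapped by Control 2 and IMP1 1. Its paralogue Cnot8 stood at 189 ± 8.64 against 150.3 ± 18.1 CPM (−0.33, adjusted p = 0.308), with groups that did not overlap. Cnot9, a conserved subunit that binds the scaffold CNOT1, was the most abundant, at 378 ± 11.8 against 254 ± 57.3 CPM (−0.57, adjusted p = 0.184, and 0.0178 by DESeq2). Cnot2 stood at 171 ± 15.8 and 215 ± 50.9 CPM (0.33, adjusted p = 0.461).

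Of 8 genes for poly(A)-binding proteins, their partners and other deadenylases, 2 had an unadjusted p under 0.05, both with a higher level (median 0.21). There were 0 without IMP1 1, 1 without Control 1, Control 3, IMP1 2 or IMP1 3, and 3 without Control 2. Pabpc4, a cytoplasmic poly(A)-binding protein gene, stood at 18.8, 17.1 and 23.1 CPM in Control and 41.8, 36.5 and 26.8 CPM in IMP1 libraries (log2 fold change 0.83, edgeR adjusted p = 0.244). All IMP1 values lay above the Control values. Pan3, of the PAN2-PAN3 deadenylase, stood at 375 ± 55.4 and 461 ± 38.7 CPM (0.30, adjusted p = 0.345). The abundant Pabpc1, the main cytoplasmic poly(A)-binding protein gene, stood at 869 ± 78.7 and 866 ± 103 CPM (−0.0060, adjusted p = 0.989), and its regulator Paip2 at 836 ± 70.5 and 745 ± 45.1 CPM (−0.17, adjusted p = 0.487). Among 9 tested partners described outside CCR4-NOT, such as Prmt1, which binds BTG1 and BTG2, and the SMAD genes, 0 were past an unadjusted p of 0.05 (median −0.19), and 1 was, with a higher level, without Control 1 or IMP1 1. Among the most abundant of these was Smad2, at 79.96 ± 23.3 against 69.9 ± 20.9 CPM.

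**Figure D4:**
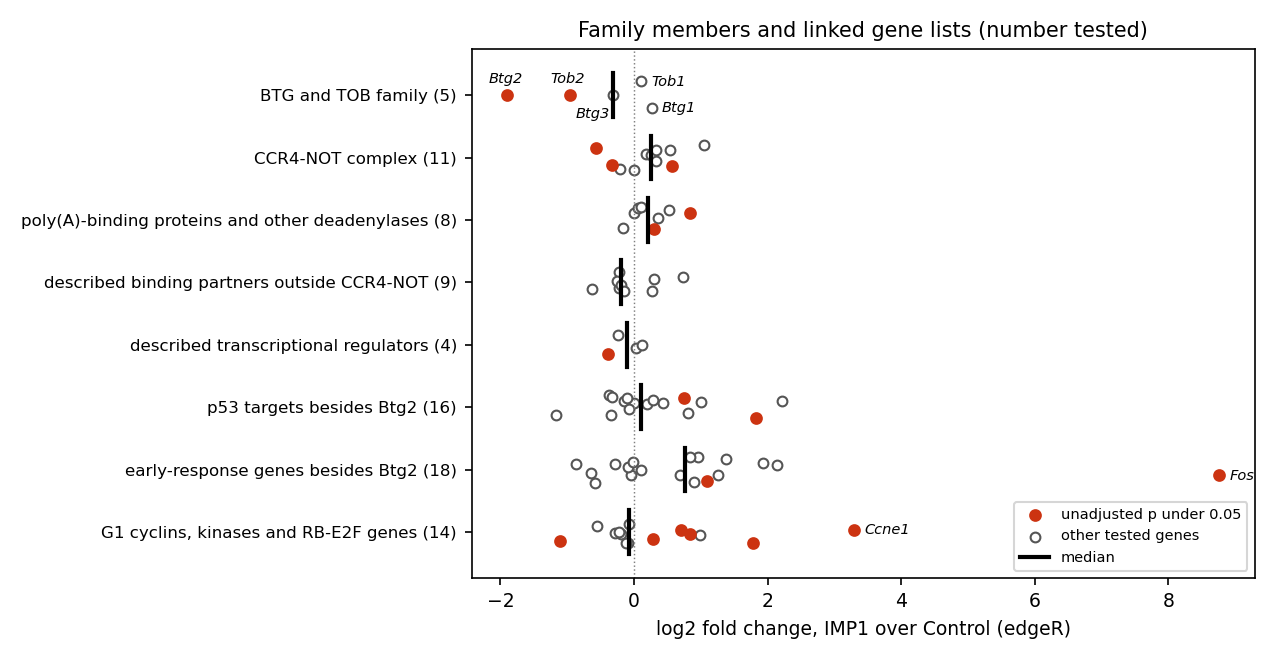
Each point is the log2 fold change, IMP1 over Control (horizontal axis), of a tested gene in the family or in 1 of 7 linked lists, filled where the unadjusted edgeR p was under 0.05, and vertical bars give the medians. Btg2 and Tob2 are the leftmost family members, and list medians run from −0.32 in the family to 0.77 in the early-response list, where Fos lies far to the right.

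Btg2 is a target of p53, so p53 and other genes it controls were set beside it. Trp53 stood at 557, 482 and 519 CPM in Control and 396, 372 and 424 CPM in IMP1 libraries (log2 fold change −0.39, SE 0.10, edgeR adjusted p = 0.137, and 0.0174 by DESeq2). Its groups did not overlap. Of 16 other p53 targets tested, 2 had an unadjusted p under 0.05, both with a higher level, and the median was 0.10. There were 3 without Control 3, and 1 with a lower level was added without Control 2. Zmat3, a p53-induced RNA-binding protein gene, stood at 4.15 ± 0.428 and 14.7 ± 2.55 CPM (1.82, adjusted p = 0.107, and 0.00650 by DESeq2). Mdm2, the ubiquitin ligase gene that limits p53, stood at 63.8 ± 17.9 and 107 ± 7.57 CPM (0.75, adjusted p = 0.186, and 0.0317 by DESeq2). Both lay in the direction opposite to Btg2, but of the 16 targets 8 had a positive and 8 a negative log2 fold change. The part of p53 in the Btg2 values was not tested. The abundant Sesn1 stood at 126 ± 15.0 and 119 ± 22.7 CPM (−0.083, adjusted p = 0.884).

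Btg2 is also induced with early-response genes, a class that cell sorting can switch on. Of 18 other early-response genes tested, 2 had an unadjusted p under 0.05, both with a higher level, and the median log2 fold change was 0.77. Without IMP1 2 there was 1 with a higher and 2 with a lower level, and without IMP1 1, IMP1 3 or Control 2 there were 4 with a higher level. Without Control 1 or Control 3 there was 1, and by limma-voom 0. Fos stood at 0, 0.158 and 0 CPM in Control and 4.73, 66.4 and 0.443 CPM in IMP1 libraries (edgeR adjusted p = 0.122, and 0.00960 by DESeq2). Zfp36, whose protein binds AU-rich elements and promotes mRNA decay, stood at 27.3, 27.1 and 14.0 CPM in Control and 30.5, 82.9 and 31.75 CPM in IMP1 libraries (1.09, adjusted p = 0.334). IMP1 2 was the highest library for both and the lowest for Btg2. The summed level of the 22 listed genes was 306 to 439.9 CPM in Control and 329, 359 and 682 CPM in IMP1 libraries, the last in IMP1 2. Their part in the Btg2 values was not tested. Without IMP1 2, the log2 fold change of Btg2 was −1.61 (SE 0.43). The abundant Nfkbia stood at 158 ± 45.8 and 157 ± 24.9 CPM, and Ier3 at 45.8 ± 16.7 and 30.4 ± 9.43 CPM.

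The family restrains the step from G1 into S phase, and BTG2 and TOB1 have been described as repressors of cyclin D1. Of 14 genes for G1 cyclins, their kinases and the RB and E2F proteins, 5 had an unadjusted p under 0.05 with a higher level and 1 with a lower one, and the median was −0.083. Over all tested genes the shares were 6.67% and 7.63%. Without IMP1 1, or after removal of the length and GC trend, there were 3 with a higher level. Ccnd1, the cyclin D1 gene, stood at 3.72, 3.84 and 4.24 CPM in Control and 14.7, 8.08 and 17.7 CPM in IMP1 libraries (log2 fold change 1.78, SE 0.48, edgeR adjusted p = 0.154, and 0.0264 by DESeq2). No Control value reached an IMP1 value. The part of Btg2 and Tob1 in the Ccnd1 values was not tested, and the Tob1 groups overlapped. Ccne1, the cyclin E1 gene, stood at 0.445 ± 0.461 and 4.39 ± 2.37 CPM (3.29, adjusted p = 0.227). The pocket protein genes Rbl1 (34.6 ± 10.9 and 61.5 ± 11.1 CPM) and Rbl2 (47.5 ± 3.70 and 77.1 ± 14.9 CPM) were also higher in the IMP1 libraries, with edgeR adjusted p of 0.251 and 0.191, and 0.0499 for Rbl2 by DESeq2. The abundant Ccnd2 stood at 396 ± 33.5 and 481 ± 31.0 CPM (0.28, adjusted p = 0.282) and Cdk4 at 477 ± 18.1 and 390.3 ± 79.8 CPM (−0.29, adjusted p = 0.425). The lower one was Cdk6, named after its values were seen, at 20.9 ± 9.68 and 9.73 ± 2.88 CPM (−1.11, adjusted p = 0.322). The count with a lower level was 0 without Control 1, Control 2, IMP1 2 or IMP1 3, under the replicate block and without TMM scaling.

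Btg1 and Btg2 are abundant in lymphocytes, so markers of other blood cells were read in the same libraries. Of 12 T cell markers, 5 were tested, and the summed level of those in the table was 18.3 to 35.7 CPM in Control and 24.2 to 36.7 CPM in IMP1 libraries. Lck and Cd247 were the most abundant, Cd3g was at 0, and Cd3e was below 1 CPM in every library. Of 12 B cell markers, 3 were tested, with sums of 72.1 to 86.6 CPM in Control and 81.2, 158.7 and 108 CPM in IMP1 1 to 3. Cd79b was the most abundant, and Ms4a1, Pax5 and Fcrla were at 0 in all libraries. In IMP1 2, the library with the highest Btg1 and Tob1 levels, the early B-lineage genes Igll1 (33.2 CPM), Cd79a (16.9), Ebf1 (14.2) and Vpreb3 (10.1) were present, and each was below 1 CPM in the other 5 libraries. These genes did not pass the filter on low counts. Sums of NK cell markers were 0.317 to 5.88 CPM in Control and 11.9 to 34.3 CPM in IMP1 libraries, nearly all from Klrb1c, with Ncr1, Klra8, Gzma and Klre1 at 0. Megakaryocyte markers such as Pf4 and Itga2b summed to 323 to 645 CPM in Control and 224 to 424 CPM in IMP1 libraries, those of macrophages and dendritic cells to 30.1 to 44.5 and 46.9 to 52.5 CPM, and those of erythroid cells to 56.4 to 81.9 and 111 to 472 CPM. Neutrophil and monocyte markers summed to 711 to 834 CPM in Control and to 1211, 820.2 and 493 CPM in IMP1 1 to 3. Within that list the markers differed in direction. The most abundant, Lyz2 and Prtn3, were lower in all IMP1 libraries, at 463 ± 45.9 against 288 ± 23.0 CPM and 258 ± 33.3 against 206 ± 7.30 CPM, as was Mpo, at 0.360 to 25.3 CPM in Control and at most 0.0314 CPM in IMP1 libraries. The granule genes S100a8 (242.5, 171 and 11.4 CPM in IMP1 1 to 3, and 5.24 to 12.03 CPM in Control) and S100a9 (189, 106 and 4.72 CPM, and 1.24 to 4.47 CPM in Control) were highest in IMP1 1 and IMP1 2, and Ngp reached 172 CPM in IMP1 1. The B-lineage genes of IMP1 2, Mpo, S100a8, S100a9 and Ngp were named after their values were seen. The part of these cell types in the member values was not tested.

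The genes with the most similar profile were found by the root mean square difference from each member over the 6 libraries, on log2 CPM after each gene's mean was subtracted. Nearest to Btg2 were Atp8b5 (difference 0.25, 12.8 ± 2.22 CPM in Control and 2.82 ± 0.956 in IMP1 cells), Fut7 (0.30) and Nkg7 (0.34, called lower, edgeR adjusted p = 0.0448). Nearest to Tob2 were Prss36 (0.10), Grhpr (0.10) and Tbcd (0.12). Ice1, Neat1 and Neurl3 were nearest to Btg1, Adprhl2, Tubg1 and Adssl1 to Btg3, and Zfp872, Usp6nl and Mex3a to Tob1, all at 0.09 to 0.16. Within a difference of 0.3 there were 2 genes for Btg2, against 841 for Btg1, 303 for Tob2, 152 for Tob1 and 86 for Btg3. The difference was not scaled, so these counts depend on how much a member itself varied between libraries. They do not show how unusual a profile is.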

How the data were processed

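The deposited values are raw counts for Entrez genes, with a column for each library. The submitters' processing notes name TopHat2 2.0.10 and mm9. How reads were counted, on which strand and with which annotation is not given in the sources used here. Symbols came from a RefSeq table of GRCm38.p6, which matched 21615 of 21761 identifiers, and 0 columns were left unmatched. Transcript lengths and 3′ regions came from GENCODE M21.

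Counts were tested with edgeR 4.0.16 (glmQLFit and glmQLFTest at default settings, R 4.3.3), with TMM scaling, filterByExpr and genotype as the single term over all 6 libraries. Adjusted p-values are Benjamini-Hochberg values over 12807 genes. Standard errors were derived from the log2 fold change and F. Alternatives were DESeq2 1.42.0, limma-voom (limma 3.58.1), newer edgeR settings, other scalings and filters, binomial thinning to the smallest total, a loess trend on length and GC (span 0.4), the replicate number as a block and each library left out. Profile likeness used a prior count of 2.

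The members and lists were chosen with earlier results of these data known. Named genes are the members and Btg4, the 3 nearest profiles to each member, listed genes past the adjusted p, up to 4 of lowest unadjusted p under 0.05, and the 2 most abundant of each list. Of the marker lists, those printed are given as summed levels. A few genes that this rule names are not reported here.

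The fit was tested on simulated counts. Their spread followed an average trend with expression level, and simulated libraries of a group differed in depth and random spread only. In that setting the fit recovered 31% of log2 changes of 1 and 72.4% of log2 changes of 3, and 6 of its 108 calls were false. The deposited libraries vary in further ways, so these shares are not the power or error rate for them. Libraries of a group differed by a chi-square of at least 60.97 per degree of freedom, and none was treated as a duplicate. The kit adds no molecular identifiers, so limits from counts cover counting error only.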

Additional observations from a re-analysis of the deposited data

How the results depend on the processing

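Btg2 and Tob2 kept a negative log2 fold change and an unadjusted p under 0.05 in all 17 alternatives, with edgeR, limma or DESeq2 adjusted p from 0.00309 to 0.282 and from 0.0491 to 0.352, and passed the threshold by DESeq2 alone. With counts thinned to the smallest library total, Btg2 stood at −1.95 and Tob2 at −0.99. DESeq2 therefore called 2 members and 7 linked genes, where edgeR called 0. Without 1 library, Btg1 ranged from −0.027 (without IMP1 2) to 0.48, and Tob1 from −0.36 (without IMP1 2), with −0.13 without Control 3, to 0.32. Btg3 ranged from −0.85 to −0.073.

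Over all genes, 27 calls became 694 by DESeq2, 103 with the strict filter, 49 with newer edgeR settings, 16 without TMM scaling, 13 with the length and GC trend removed, 11 by limma-voom and 0 to 2 with 1 library left out (0 without Control 3, where 1627 genes had an unadjusted p under 0.05). The replicate block left 4. Deviations of same-numbered libraries had r from −0.00831 to 0.0310, and not every library correlated best with its own number. The labels do not say whether the numbers pair libraries, and so few libraries cannot decide it. Under the block, Btg2 had a log2 fold change of −1.94 (edgeR adjusted p = 0.236). With the median transcript length, levels per kilobase were 69.03 and 82.8 CPM for Btg1, 14.6 and 11.7 for Btg3 and 19.9 and 10.2 for Tob2 in Control and IMP1 cells. Of 238 list counts over the alternatives, 193 stayed within 1.5 times, and these include counts of 0 that stayed 0. IMP1 libraries were deeper than all Control libraries, and the labels name no batch, so genotype and any batch cannot be told apart.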

Other observations

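Foxo3, a transcription factor described as an activator of Btg1, is known for its role in stem cell quiescence. In the deposited counts it was low, at 0.113, 2.41 and 0 CPM in Control and 0.973, 1.59 and 0 CPM in IMP1 libraries. How reads were counted is not given, and whether this row holds all Foxo3 reads was not tested. The low values therefore do not show that the cells lack Foxo3. Foxo1 stood at 24.4 ± 3.63 and 20.7 ± 13.8 CPM, and Foxo4 at 5.28 ± 2.55 and 5.72 ± 2.36 CPM (SD, n = 3). Cdkn1a, the p21 gene and another p53 target, was also low, at 1.24 ± 1.09 and 2.19 ± 1.56 CPM. Foxo3, Foxo4 and Cdkn1a were named after their values were seen.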
